A study of Mus musculus with 2 samples.

Results

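The genes described here encode cytokines released by effector helper T cells, measured in regulatory T (Treg) cells, a CD4 lineage that holds immune responses in check. They are Il2, Ifng, Il4, Il13, Il17a, Il21, Csf2 and Il16, 8 of the 55536 annotated mouse genes in the deposited tables. They were taken by gene symbol, and each symbol matched 1 gene. The cells were primary Treg cells of a male mouse, 9 weeks old, and polyA-selected RNA was sequenced. Both libraries are technical replicates of 1 biosample, so there was 1 group and no comparison of conditions, and the spread between them is technical. Libraries 1 and 2 held 34697128 and 32049199 estimated counts. How the cells were sorted, the strain, and whether they were stimulated is not stated in the labels. In bulk RNA, a few cells with much of a transcript cannot be told apart from many cells with little of it.

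Helper T cells are divided by the cytokines they release. Th1 cells make interferon gamma, Th2 cells make IL-4 and IL-13, Th17 cells make IL-17A, and follicular helper cells are a source of IL-21. IL-2 drives the growth of T cells, and Treg cells, which carry its high-affinity receptor, depend on IL-2 from other cells. Foxp3, the factor that defines Treg cells, represses Il2 and other effector cytokine genes. IL-16 stands apart from the others: it is made as a precursor without a secretion signal, a caspase releases its C-terminal end, and the secreted end binds CD4.

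Il16 was by far the most abundant of the 8 members, and 1 annotated form was assigned nearly all of it. Gene level is given as TPM (transcript abundance corrected for length and scaled to a fixed total). Il16, on chromosome 7 (83642825 to 83745726, minus strand, GRCm38), had 355.73 TPM (library 1) and 325.22 TPM (library 2), a mean of 340 ± 21.6 TPM (SD, n = 2). It took 98.2% of the members' summed TPM in library 1 and 98.8% in library 2. The short coding transcript Il16-203, with 624 codons in 7 exons, held 96.5% and 95.3% of the gene's TPM. The long form Il16-201, with 1322 codons in 19 exons, held 0.604% and 0.824%. A retained-intron transcript, Il16-204, held 2.89% and 3.90%, and the remaining 3 annotated transcripts were listed at 0 TPM in both libraries. The starts of the short and the long form lie 80028 bases apart, and the start of the short form falls in an intron of the long one.

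The 2 sequences below are the 250 bases before each of those starts, shown because such unequal levels were assigned to the transcripts that begin there. Those shares depend on how the authors' model divided reads between overlapping transcripts. Use of the 2 starts was not tested. They come from RefSeq on GRCm38.p6 and are written 5′ to 3′ on the minus strand of chromosome 7. The RefSeq start of the first matches that of Il16-203 exactly, and that of the second lies 16 bases from the start of Il16-201. Capitals mark matches on either strand to the CCAAT box, to the TATA box TATAAA, to the ETS factor core GGAAG or to the Runx factor core TGTGGT, motifs chosen after the transcript values were known.

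Il16-203, chr7:83655496-83655745: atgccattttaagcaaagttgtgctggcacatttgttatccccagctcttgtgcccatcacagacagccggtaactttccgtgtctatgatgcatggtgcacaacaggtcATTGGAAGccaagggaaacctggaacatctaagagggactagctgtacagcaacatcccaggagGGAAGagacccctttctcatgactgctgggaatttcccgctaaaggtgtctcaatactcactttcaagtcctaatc

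Il16-201, chr7:83735540-83735789: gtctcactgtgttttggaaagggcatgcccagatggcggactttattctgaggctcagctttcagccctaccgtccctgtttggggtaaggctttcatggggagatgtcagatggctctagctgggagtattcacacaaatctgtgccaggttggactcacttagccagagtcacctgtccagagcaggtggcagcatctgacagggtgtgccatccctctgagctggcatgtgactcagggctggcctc

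The window before the short form holds 1 CCAAT box and 2 ETS cores, and the CCAAT box, on the reverse strand, overlaps the first ETS core. It holds no TATA box and no Runx core. The window before the long form holds none of the 4. Of 32851 promoter windows, 33.8% hold the CCAAT box, 64.1% the ETS core, 12.4% the TATA box and 14.0% the Runx core. These matches describe letters only.

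**Figure D1:**
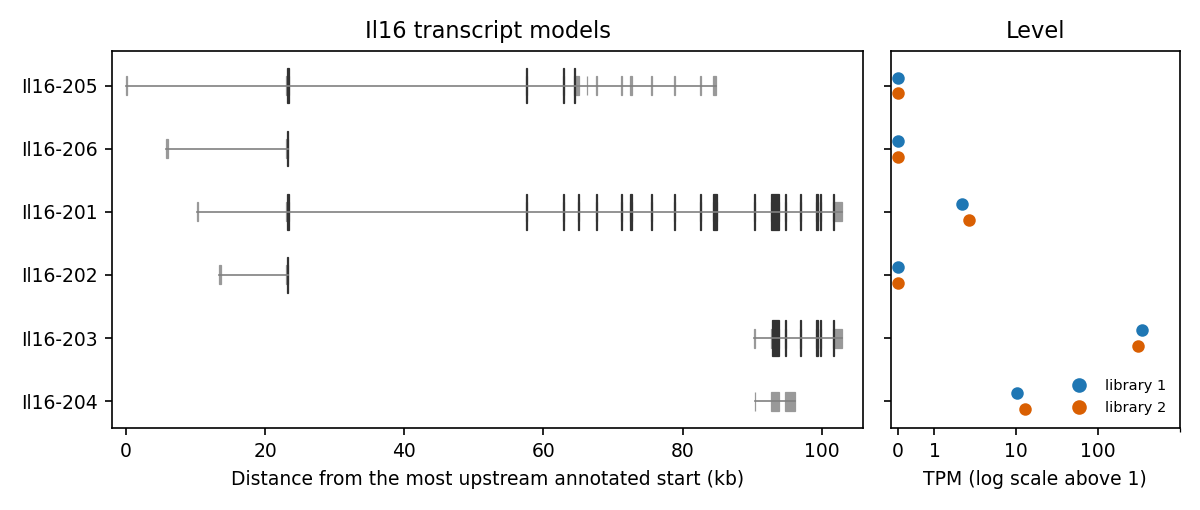
Left, the 6 annotated Il16 transcripts drawn to scale from the most upstream start (kb, in the direction of transcription; tall dark blocks are coding exons and low grey blocks noncoding ones). Right, the TPM of each in libraries 1 and 2, linear below 1 and logarithmic above: Il16-203 is the highest in both, at 343.31 and 309.85 TPM.

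Il16-203 overlaps a neighbouring gene. Stard5, which encodes a sterol-binding START-domain protein, runs on the opposite strand. Of the 3134 stretches of 50 bases in Il16-203, 1108 (35.4%) are also present, reverse-complemented, in a Stard5 transcript. Whether the libraries keep strand is not stated in the labels, and without strand such reads cannot be assigned to either gene. Stard5 had levels of 36.5 and 30.91 TPM, and its part in the Il16 level was not tested. The tables' own posterior SD of the Il16 estimated count was 27.52 of 23536.2 reads in library 1 and 28.34 of 20877.5 in library 2. That of Stard5 was nearly the same, 27.05 of 1905.45 reads and 28.27 of 1586.96. How the authors' model divided reads between Il16 and Stard5 was not tested.

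Ifng was the only other member detected, by the criterion of at least 1 TPM in both libraries. It encodes interferon gamma, the main macrophage-activating Th1 cytokine, and lies on chromosome 10 (118441046 to 118445892, plus strand). Its level was 3.77 TPM and 3.31 TPM, a mean of 3.54 ± 0.325 TPM (SD, n = 2). The libraries held 91.22 and 78.64 estimated counts, and the exact 95% Poisson intervals of the level, 3.03 to 4.62 and 2.63 to 4.14 TPM, overlapped. Il16 TPM was 94.4-fold that of Ifng in library 1 and 98.3-fold in library 2. The M4 tables, deposited counts on an older annotation, gave 42 reads in each library. Ifng-201, the coding transcript, held 98.1% and 100.0% of the Ifng TPM, and 88.9% and 93.6% by the tables' posterior mean TPM. A noncoding row on the same strand, Gm49751, shares 157 of the 1159 windows of 50 bases of Ifng-201 (13.5%), and it was assigned 33.78 and 34.36 estimated counts. How its reads were divided from those of Ifng was not tested.

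Il4 and Il2 passed 1 TPM in library 1 and not in library 2. Il4, the Th2 cytokine that drives IgE switching, lies on chromosome 11 (53602982 to 53618669, minus strand) and read 1.23 and 0.44 TPM, a mean of 0.835 ± 0.559 TPM (SD, n = 2). Those levels rest on 14 and 5 reads, with Poisson intervals of 0.671 to 2.06 TPM and 0.142 to 1.02 TPM that overlap. No window of 50 bases in any Il4 transcript was found in another gene, and the M4 tables gave 8 and 4 reads. By transcript, Il4-204 was assigned 8.30 and 5 reads and the full-length coding Il4-201, with 140 codons, 3.65 and 0. By the tables' posterior mean TPM, Il4-201 held 25.3% and 20.8% of the gene and Il4-204 41.3% and 39.0%. The split between the Il4 transcripts thus depends on the estimator and is not resolved at these counts.

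Il2, the T cell growth factor, lies on chromosome 3 (37120523 to 37125959, minus strand) and read 1.06 and 0.36 TPM, a mean of 0.71 ± 0.495 TPM (SD, n = 2). Its Poisson intervals, 0.664 to 1.54 and 0.154 to 0.702 TPM, overlapped narrowly. Neither the order of Il4 and Il2 nor their distance from 1 TPM in library 1 exceeded these intervals. The estimated counts of Il2 were 24.46 and 8.06, which are not whole numbers, and the authors' posterior SD was 2.10 and 1.19 reads, where that of Il4 was 0. The M4 tables gave 2 reads and 0.

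A search made after these values were seen found a stretch that Il2 shares with another gene. Of the 1095 windows of 50 bases in Il2-201, 138 (12.6%) are identical, on the same strand, to windows of Ntan1. Ntan1, on chromosome 16, encodes an N-terminal asparagine amidase and stood at 149.91 and 148.52 TPM. The shared stretch covers bases 947 to 1133 of the Il2 transcript, 187 bases past the coding sequence of 507 bases. Nearly all of it is in the 190 bases by which the GENCODE 3′ end runs past that of RefSeq, whose Il2 ends at base 954 of the same transcript. How many of the reads assigned to Il2 came from that stretch cannot be read from the deposited tables, and its part in the Il2 level was not tested.

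**Figure D2:**
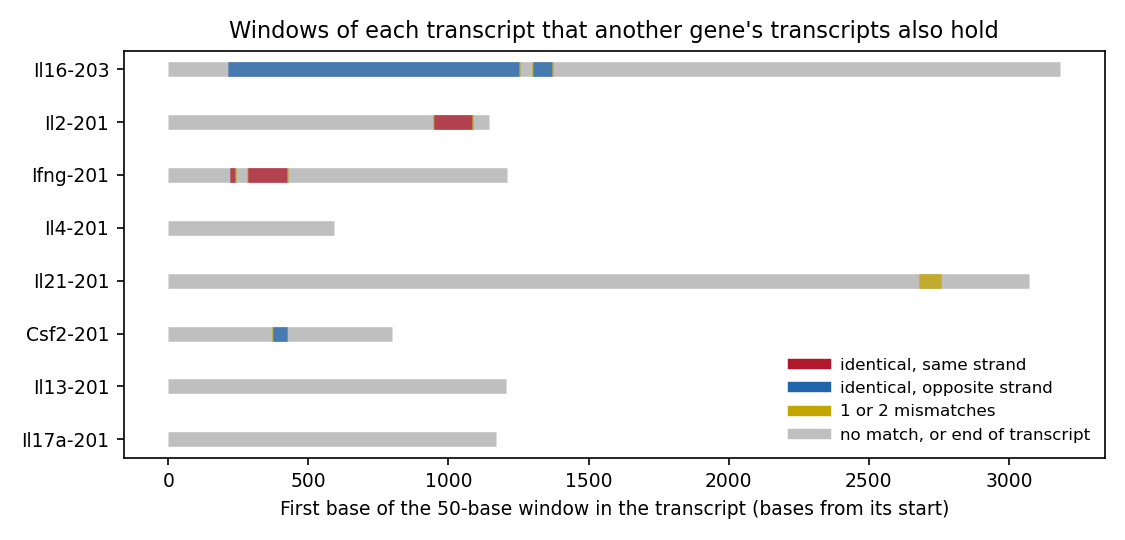
Each bar is the first-numbered transcript of a member, or Il16-203 for Il16, drawn in bases from its start, coloured where the 50-base window that begins there also occurs in a transcript of another gene. Il2-201 has a same-strand stretch near its 3′ end (138 windows), Il16-203 has 1108 opposite-strand windows, and Il4-201, Il13-201 and Il17a-201 have none.

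Il21 and Csf2 had reads in library 1 only. Il21, whose product helps germinal centre B cells, lies on chromosome 3 (37222759 to 37232636, minus strand) and read 0.34 TPM from 22 reads in library 1. Library 2 had 0 reads, and a count of 0 was taken to allow up to 3 reads. At the effective length of 1929.67 bases that the table lists for Il21 in library 2, 3 reads come to 0.0758 TPM, while library 1 lists 3023 bases, and the authors' own interval in library 2 reaches 0.321 TPM. The M4 tables held 1 Il21 read and 0. No window of Il21-201 was identical to one in another gene, and 79 of 3023 matched other genes with 1 or 2 mismatches. Csf2, which encodes the myeloid growth factor GM-CSF, lies on chromosome 11 (54247271 to 54249667, minus strand) and had 1 read, 0.06 TPM, in library 1 and 0 in library 2 in both kinds of table.

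Il13 and Il17a had no read in any table. Il13, the Th2 cytokine of mucus and airway responses, lies on chromosome 11 (53631324 to 53634702, minus strand). Il17a, the Th17 cytokine that recruits neutrophils, lies on chromosome 1 (20730905 to 20734496, plus strand). A count of 0 allows up to 0.123 and 0.126 TPM of Il13 in libraries 1 and 2, and up to 0.126 and 0.130 TPM of Il17a. These limits and the Poisson intervals cover counting error only, since PCR copies are not independent molecules. At this depth the levels of Csf2, Il13 and Il17a could not be ordered.

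**Figure D3:**
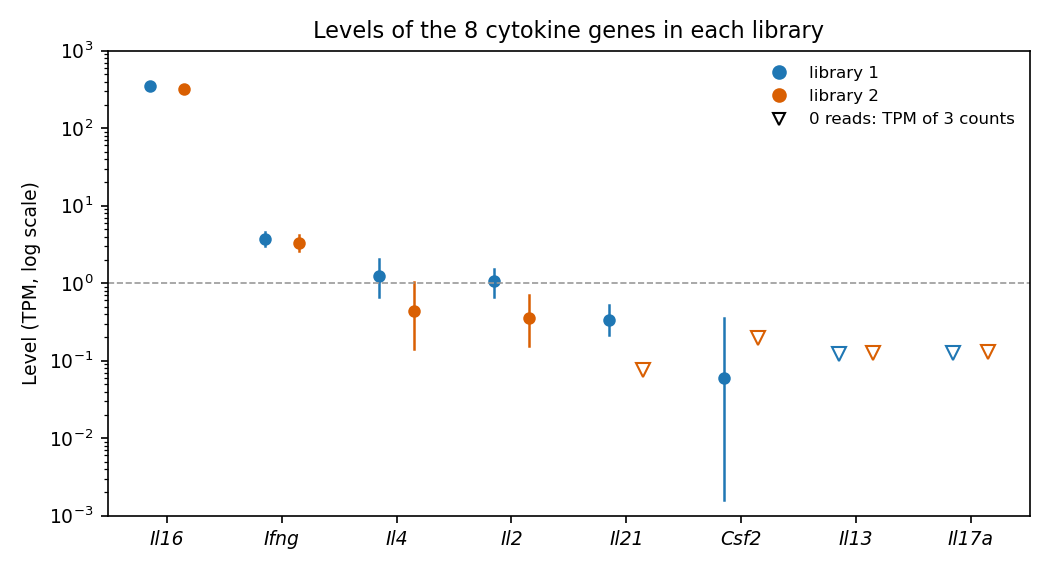
TPM of each member (log scale) in libraries 1 and 2, with exact 95% Poisson intervals of the rounded count. Open triangles stand for 0 reads, at the TPM of 3 reads, and the dashed line is 1 TPM: Il16 and Ifng lie above it in both libraries, Il4 and Il2 in library 1 only.

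All members are protein-coding, and 2 of 8 (25%) were detected, against 48.0% of the 22028 protein-coding genes and 23.9% of annotated genes of any kind. The median level of the members, as log2(TPM + 1), was 0.50, against 0.05 for all annotated genes and 0.85 for protein-coding genes, and it was 0.22 without library 1 and 0.73 without library 2. Il16 ranked at percentile 98.3 among protein-coding genes, Ifng at 56.7, Il4 at 50.2, Il2 at 49.4, Il21 at 42.3 and Csf2 at 28.9. No read in either library, the case of Il13 and Il17a, was also the case of 20.2% of protein-coding genes. Reads in library 1 only, as for Il21 and Csf2, were found for 12.4% of protein-coding genes, and reads in library 2 only for 2.54%.

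The libraries were compared gene by gene with an exact two-sided binomial test on rounded estimated counts, Benjamini-Hochberg adjusted over the 18746 genes whose counts summed to 10 or more. That test measures counting error only, and it called 36.5% of all genes tested (6834 of 18746). Of the members 5 could be tested and 3 were called, each higher in library 1, a number too small to set against that share. Il21 had 22 reads in library 1 against 0, which is at least 6.77-fold higher when 3 reads are taken as the floor in library 2 (adjusted p = 6.82e-06, exact binomial test). That ratio leaves out the counting error of the 22 reads, and the exact 95% interval of the log2 ratio reaches up to -2.34. Reads in library 1 with none in library 2 were not peculiar to it: 158 protein-coding genes reached 10 estimated counts in the first library with 0 in the second, and 38 the reverse. Il2 had a log2 ratio, library 2 over library 1, of -1.42 (95% interval -2.83 to -0.27, adjusted p = 0.0355 by the exact binomial test). That interval leaves out the error of assigning reads to Il2. Il16 had a log2 ratio of -0.06 (adjusted p = 0.000158 by the exact binomial test). Ifng, at -0.09 (adjusted p = 0.817, exact binomial test), and Il4, at -1.29 (adjusted p = 0.145, exact binomial test), were not called. The median log2 ratio was -1.29 over the 5 members tested and 0.00057 over all genes tested. The members' median is the ratio of Il4 itself, which was not called. Ifng and Il16 lay near 0, so the median does not describe the members as a set.

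Of the 3 members, Il21 alone was also called by edgeR's exact test with a common dispersion. The value of the dispersion, 0.0228, came out of these same libraries taken as 1 group, since there is no replicate on either side, so it holds the differences under test. The test called 2.98% of genes (558 of 18746), and of the members it called Il21 (adjusted p = 0.000836), not Il2 (adjusted p = 0.349) or Il16 (adjusted p = 1.0). On the M4 counts the binomial test called 14.3% of genes (1740 of 12186) and none of the 3 members tested, Ifng, Il4 and Il16. There the sign turned for Il16, to a log2 ratio of 0.07 (adjusted p = 0.128, exact binomial test), and for Ifng, to 0.09 (adjusted p = 0.932, exact binomial test). In library 1, M4 counts were a median 13.5% of estimated counts in genes as abundant as Il16, against 50% in genes as low as Il2. The M4 ratio of Il16 is therefore not a like check of its M21 ratio. With 22 reads against 0 in the M21 tables and 1 against 0 in the M4 tables, the Il21 difference rests on 1 kind of table. So does that of Il2, with 24.46 against 8.06 and 2 against 0. Neither gene had enough M4 reads to be tested there.

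**Figure D4:**
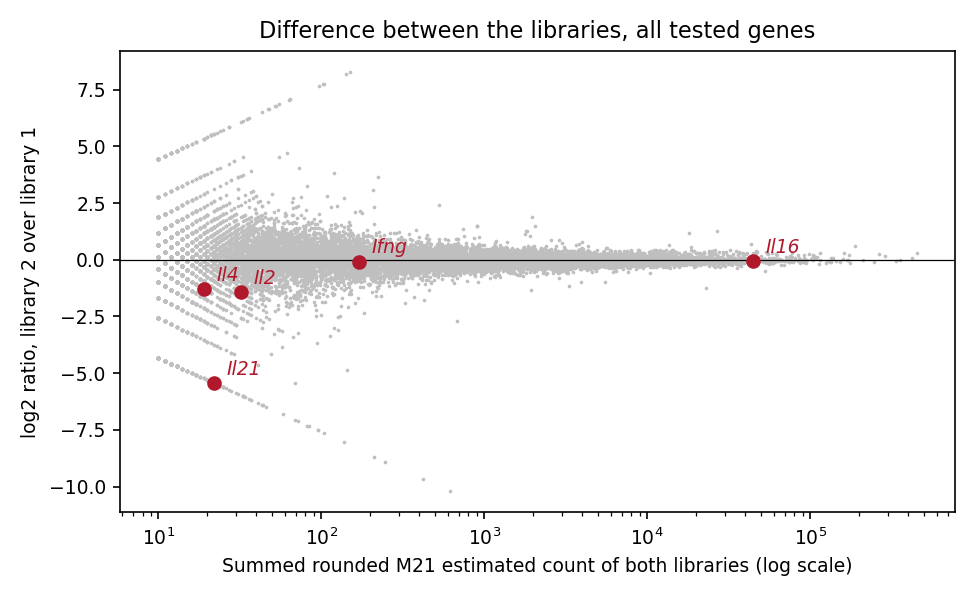
Each grey point is 1 of the 18746 tested genes, placed by its summed rounded estimated count (log scale) and its log2 ratio, library 2 over library 1 (prior count 0.5). Il16 and Ifng lie near 0, and Il4, Il2 and Il21 lie below it at low counts, Il21 on the line of genes with 0 reads in library 2.

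Among the members with reads, the 2 kinds of table differed most for Il2 and Il21. M4 counts are fewer for most genes, so each member was set beside the genes within 2-fold of its estimated count. For Il2 in library 1, the M4 count was 8.18% of the estimated count, against a median of 50% in 1451 like genes, of which 10.2% were lower still. For Il21 in library 1 it was 4.55%, against 50%, with 7.24% of like genes lower. Ifng, at 46.0% and 53.4%, lay close to its like genes at 53.5% and 54.2%, and Il4, at 57.1% and 80.0%, lay within their middle range in both libraries. Il16, at 16.6% and 18.6%, was near the 13.5% and 14.3% of genes as abundant. The M4 gene models were not used here, and the source of the gap for Il2 and Il21 was not tested.

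**Figure D5:**
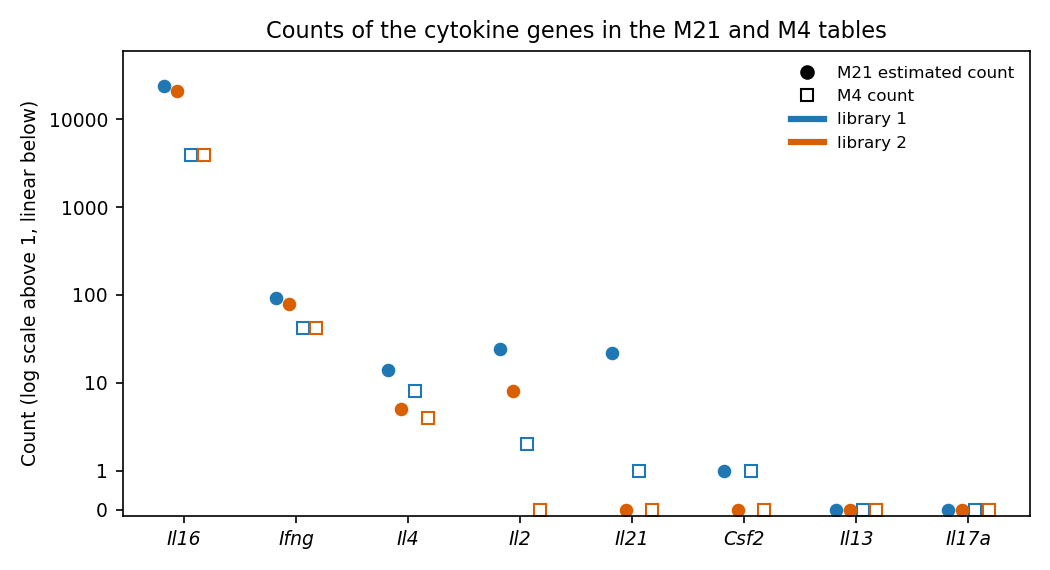
Estimated counts on GENCODE M21 (filled circles) and counts on GENCODE M4 (open squares) of each member in libraries 1 and 2, on a scale that is linear below 1 and logarithmic above. Il2 has 24.46 against 2 and Il21 22 against 1 in library 1, while Il4 has 14 against 8.

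Of 15 receptor genes of the members 10 were detected, with a median of 134 TPM. The 3 IL-2 receptor chains were among the highest, Il2rg, the chain shared with the IL-4 and IL-21 receptors, at 1194 ± 44.1 TPM, Il2rb at 795 ± 31.8 TPM and Il2ra at 368 ± 4.98 TPM (SD, n = 2). Cd4, which binds IL-16, was at 318 ± 23.9 TPM, Ifngr1 at 282 ± 19.3 TPM and Il21r at 258 ± 24.4 TPM. Some chains of the IL-13 and IL-17A receptors were not detected. Il13ra1, a signalling chain for IL-13, was at 0.445 ± 0.0495 TPM and Il17rc, which pairs with IL-17RA, at 0.265 ± 0.0495 TPM (SD, n = 2). Their partner chains were detected, Il4ra at 167 ± 16.5 TPM and Il17ra at 134 ± 23.3 TPM (SD, n = 2). Il13ra2, the decoy receptor of IL-13, had no read. Csf2rb and Csf2rb2 are near-identical copies between which reads may be split, so their levels, 0.53 and 0.08 TPM, are uncertain. Neither reached 1 TPM in either library. Csf2ra, the other chain of the GM-CSF receptor, was detected at 8.97 ± 1.23 TPM (SD, n = 2).

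The listed regulators of the cytokine genes were all detected, where 48.0% of all protein-coding genes were. The lists were chosen with earlier results of these data known. All 17 genes listed as activators were detected, with a median of 21.4 TPM, from Eomes at 1.45 ± 0.41 TPM to Stat6, which signals for IL-4, at 195 ± 18.4 TPM (SD, n = 2). Bcl6, itself a transcriptional repressor, is counted among the 17, at 13.3 ± 0.863 TPM. Gata3, the Th2 factor, was at 93.6 ± 10.7 TPM, while Tbx21, the Th1 factor, was at 6.54 ± 2.07 TPM (SD, n = 2). All 9 genes listed as repressors were detected, with a median of 98.5 TPM. Among them were Foxp3 at 109 ± 1.68 TPM, Ikzf2 at 317 ± 11.9 TPM, Satb1 at 232 ± 10.2 TPM and Prdm1, the lowest, at 11.4 ± 2.52 TPM. Whether each of the 9 represses the members in these cells was not tested. All 7 genes whose products destabilize cytokine mRNA were detected, from Rc3h1 at 11.6 ± 1.27 TPM to Zfp36 at 204 ± 17.6 TPM. All 8 genes that T cell activation induces were detected, from Fos at 18.6 ± 5.03 TPM to Myc at 219 ± 24.8 TPM.

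Of 10 other helper cytokine genes 4 were detected: Lta, which encodes lymphotoxin alpha, at 129 ± 4.15 TPM, Tnf at 34.4 ± 0.552 TPM, Il10, an inhibitory cytokine that Treg cells make, at 3.61 ± 0.891 TPM, and Areg, a tissue repair factor, at 1.54 ± 0.58 TPM (SD, n = 2). Of the other 6, 5 had no read in either library, Il3, Il5, Il9, Il22 and Il31. Il17f, the neighbour of Il17a 42649 bases away, was assigned 4.18 reads and 0.

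Protein-coding neighbours of the members ranged from no read to 194 TPM. Rad50, a DNA repair gene 14816 bases from Il13, stood at 34.4 ± 3.85 TPM, and Kif3a, a kinesin gene 1014 bases from Il4, at 5.70 ± 0.559 TPM (SD, n = 2). Il3, 15635 bases from Csf2, had no read, and P4ha2, on its other side, stood at 0.08 TPM. On the Il2 side of chromosome 3, 4932438A13Rik stood at 194 ± 3.10 TPM, and Adad1, which overlaps Il2 on the opposite strand, had no read.

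The Treg label held against its markers, and several markers of other cells stood above Ifng. All 5 Treg markers were detected, from Foxp3 at 109 TPM to Tnfrsf18 at 620 TPM, with a summed level of 1656 and 1617 TPM in libraries 1 and 2. Of 7 NK and ILC1 markers 3 were detected, with sums of 12.1 and 12.9 TPM: Prf1, which encodes perforin, at 7.88 TPM, Klrb1c at 1.71 TPM and Eomes, which is also among the activators. The defining NK marker Ncr1 had no read. Both CD8 T cell markers were detected, Cd8b1 at 23.7 TPM and Cd8a at 2.27 TPM (25.8 and 26.1 TPM summed). Of 5 gamma-delta T cell markers 3 were detected, Tcrg-C1 at 14.8 TPM, Tcrg-C2 at 7.59 TPM and Trdc at 3.92 TPM (24.6 and 28.9 TPM summed), while Sox13 had 3 reads and 0. Of 6 basophil, mast cell and ILC2 markers 1 was detected, Il1rl1, which Treg cells also express, at 10.8 TPM (11.9 and 11.2 TPM summed). Mcpt8 had no read, but the others had some. Cpa3 had 17 and 10 estimated counts in libraries 1 and 2, where Il4 had 14 and 5. Ms4a2 had 9.01 and 1, Gata2 2 and 12, and Fcer1a 1 and 0. Of 5 B cell markers 4 were detected, from Cd79b at 30.8 TPM down to Ms4a1 at 1.66 TPM, with Pax5 lowest at 0.105 TPM (45.8 and 40.5 TPM summed). Of 6 myeloid markers 3 were detected, Lyz2 at 13.1 TPM, Cd68 at 3.37 TPM and Csf1r at 3.12 TPM, with Cd14 lowest at 0.225 TPM (24.4 and 17.8 TPM summed). NK, CD8 and gamma-delta T cells can make interferon gamma, and mast cells and basophils IL-4. Helper T cells other than Treg cells can make both, and no marker list was set for them. Cd40lg, one of the listed helper T activation genes, was at 36.0 ± 4.90 TPM (SD, n = 2). The part of any of these cells in the member levels was not tested. All 6 reference genes were detected, from Tbp at 46.3 TPM to B2m at 6269 TPM.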

How the data were processed

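Members and gene lists were chosen with earlier results of these data known. For each of 2 technical libraries of 1 biosample (Treg cells, polyA RNA), the deposited gene and transcript tables hold estimated counts, TPM and FPKM on GENCODE M21 (mm10), per the file headers and file lists; reads shared between features were divided by the authors' model. A further deposited table holds whole-number counts on GENCODE M4 from genome alignments. Aligner and quantifier were not given in the sources used here. Effective length was length less 49 bases in 100.0% of transcripts. The totals were 34697128 and 32049199 estimated counts (M21) and 9576557 and 8937887 counts (M4); M21 rows naming no gene (0.197% and 0.212%) were left out.

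Detection meant at least 1 TPM in each library. Estimated counts were rounded, scaled by TMM (edgeR 4.0.16, R 4.3.3), filtered at a summed count of 10, and put to an exact two-sided binomial test (SciPy 1.17.1), Benjamini-Hochberg adjusted at 0.05; PCR copies make its p-values too small. A quasi-likelihood fit leaves no residual degrees of freedom here, so edgeR's exact test with a common dispersion was the alternative, beside others in detection minimum, unit, normalization (DESeq2 1.42.0), filter and table. Both tests were tested on simulated data, the binomial test with known and with TMM-estimated library sizes. The simulated counts had only the noise that each test assumes. Those runs therefore cannot show how the tests fare with the noise of these libraries. Windows of 50 bases were matched to all M21 transcripts with bwa 0.7.19, at most 2 mismatches and no gaps. Promoter sequences came from RefSeq. All members were named, and in each of 14 further lists the highest, the lowest and genes paired with a member, up to 6 in all, plus protein-coding locus neighbours. A gene under this rule is not reported here, and further marker genes were named after their values were seen.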

Additional observations from a re-analysis of the deposited data

Results flagged for a closer look

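Reads were assigned to noncoding rows that overlap a member and stand outside the comparisons. Gm49751, within Ifng on the same strand, had 33.78 estimated counts in library 1 and 34.36 in library 2. 2310044K18Rik, within Il16 on the opposite strand, had 40.07 and 33.15. There were no control samples, and each value lies above the 3 reads that a count of 0 allows. Which of these reads belong to the member was not tested.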

How the results depend on the processing

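The 2 detected members stayed 2 at minimums of 0.5 and 2 TPM, in FPKM, in posterior mean TPM and in M4 counts scaled to library size, were 4 at 0.1 TPM, and ranged from 2 to 4 when a library was left out (4 without library 2, since Il4 and Il2 pass in library 1). The median member level was -1.10 with a pseudocount of 0.1 in place of 0.50. The 3 members called between the libraries were 1 by edgeR's exact test with a common dispersion (Il21) and 0 on M4 counts, where Il16 had an unadjusted p = 0.0278 by the exact binomial test and no other member was under 0.05. The genes called were 558 and 1740 under the same alternatives, against 6834. On M4 counts the log2 ratio of Ifng turned to 0.0856 and that of Il16 to 0.0721. Genes as abundant as Il16 keep a smaller share of their estimated counts there, so its M4 ratio is not a like check. Without a filter on low counts the adjusted p of Il2 was 0.0581 by the exact binomial test. By the posterior mean the Il16 level was 317 TPM in place of 340, Csf2 0.09 in place of 0.03, Il21 0.31 in place of 0.17, and Il13 and Il17a 0.04 in place of 0. The median member level was 0.22 and 0.73 with library 1 or 2 left out. The cause of these changes was not tested. Alternative normalizations changed no member's call. No paired analysis was possible because there is 1 group, so no sample of another group shares a replicate number. Depth limits Csf2, Il13 and Il17a, at 0 or 1 read, and with 1 biosample no value speaks for other mice.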
